A study of Homo sapiens with 5 samples.

Results

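The genes described here are those that build caveolae, the flask-shaped pits of the plasma membrane. They were the caveolins CAV1 and CAV2, the cavins CAVIN1, CAVIN2 and CAVIN3 (older names PTRF, SDPR and PRKCDBP), and the neck and rim proteins EHD2 and PACSIN2. The members were taken by symbol, and where a symbol had several entries in the expression table the one with the highest mean over the 5 libraries was used, which gave 7 of 37181 entries. Expression was measured by RNA sequencing in HCC827, a human lung adenocarcinoma cell line with an activating EGFR mutation, and in HCC827/GR, a gefitinib-resistant line derived from it. Gefitinib is an inhibitor of the EGFR kinase. The labels give an exon 19 deletion for the samples of both lines, and say that the resistant cells were raised under stepwise increasing drug for more than 6 months. The libraries were HCC827 replicates 2 and 3 and HCC827/GR replicates 1, 2 and 3. There was 1 derived line, so what belongs to resistance and what belongs to that line cannot be told apart. Nothing in the labels says that replicates were separate cultures, so the p-values measure the spread between these libraries, which may be technical.

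Caveolin-1 is the main integral protein of the caveolar coat and inserts into the inner leaflet of the membrane as a hairpin, and caveolin-2 joins it in mixed oligomers. Cavins form the peripheral coat, with CAVIN1 (cavin-1) required for the pit to form and cavin-2 and cavin-3 binding to it. EHD2 is an ATPase that gathers at the neck and holds the pit at the surface, and PACSIN2 (syndapin-2) is an F-BAR protein that bends the membrane there. Caveolae are abundant in endothelial, fat and muscle cells and in the alveolar type I cells of the lung. They buffer membrane tension, take part in endocytosis and hold signalling receptors and kinases.

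CAV2 and CAV1 lie next to each other on chromosome 7. The promoter sequences of this gene pair and of EHD2 are shown because CAV1, the member that passed the test between the lines, and its neighbour CAV2 can be set beside EHD2, which had the largest fitted difference but failed the test. RefSeq windows (GRCh38.p14) held 250 bases before and 50 after an annotated start, and 5 of the 7 members, all but CAVIN1 and CAVIN3, had such windows, 13 in all. Only the stretch that lies outside annotated exons is printed, each on the plus strand, and capitals mark GC boxes, the letters GGGCGG on either strand, which the factor SP1 and its relatives bind. The stretches are chr7:116499932-116500043 for a downstream start of CAV2, chr7:116526112-116526276 for an alternative start of CAV1 and chr19:47713172-47713342 for EHD2. The CAV2 and CAV1 stretches lie inside the annotated spans of their genes, and the upstream windows of both genes are not printed.
CAV2: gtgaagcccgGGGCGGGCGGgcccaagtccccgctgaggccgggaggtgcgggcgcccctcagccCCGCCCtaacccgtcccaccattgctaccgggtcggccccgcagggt
CAV1: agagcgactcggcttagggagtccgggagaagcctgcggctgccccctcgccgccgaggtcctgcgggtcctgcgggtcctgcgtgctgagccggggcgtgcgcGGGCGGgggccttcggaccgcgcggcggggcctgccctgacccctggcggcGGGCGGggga
EHD2: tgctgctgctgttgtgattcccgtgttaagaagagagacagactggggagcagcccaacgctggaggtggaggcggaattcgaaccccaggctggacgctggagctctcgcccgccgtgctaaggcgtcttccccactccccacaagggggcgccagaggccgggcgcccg

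The CAV2 stretch was 77.7% G and C and held 3 GC boxes, of which 2 overlap. The CAV1 stretch was 79.4% G and C with 2 GC boxes, and the EHD2 stretch was 66.1% G and C with none. The median over all windows was 58.7%, taken over the whole 300 bases of each window and not over such a stretch. In the whole windows, GC boxes numbered 6 and 4 at the CAV2 starts, 3, 3 and 2 at the CAV1 starts and 1 at the EHD2 start. The CAV1 windows with 3 boxes overlap, so these counts are not of separate sites. A GC box stood in 45.0% of all 35116 windows. The main PACSIN2 window held 2 GC boxes and 3 CCAAT boxes, and the CAVIN2 window held no GC box. The other motifs searched on both strands were CCAAT (in 34.6% of all windows), the TATA box TATAAA (11.5%), the E-box CACCTG (20.6%), the AP-1 motif TGANTCA (7.71%) and the TEAD motif CATTCC (14.0%). None of these was found in the CAV1, CAV2 or EHD2 windows, whereas the CAVIN2 window and 4 PACSIN2 windows held a TEAD motif. Most of these PACSIN2 windows overlap and share the same TEAD match. An E-box stood in the PACSIN2 windows chr22:42946992-42947291 and chr22:42960220-42960519. A match describes the letters of the window only.

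Values were deposited as FPKM, the number of fragments scaled by transcript length and by all mapped fragments of the library, which allows levels of different genes to be set side by side but carries no read counts, so the depth of the libraries is unknown. The summed FPKM ran from 138900 to 167700 per library. Pearson correlations across genes of log2(FPKM + 1) were 0.913 to 0.927 within a line and 0.851 to 0.873 between lines, which describes the libraries only, since genes are not independent replicates. All 5 epithelial markers were expressed in both lines, but 4 of them (EPCAM, KRT18, KRT19 and CDH1) passed the test described below as lower in HCC827/GR. KRT8 differed by -0.75 on the log2 scale without passing (limma, adjusted p = 0.101), with every resistant library below both parental ones. The summed level of all 5 markers was 1063 to 1182 FPKM in HCC827 and 443 to 573 FPKM in HCC827/GR. Of 7 endothelial markers, 6 stayed at or under 0.0830 FPKM in all libraries, with ERG at 0. The seventh, PECAM1, had its highest entry in an assembled transcript without annotation at 4.34 and 3.31 FPKM in HCC827 and listed at 0 in the 3 HCC827/GR libraries. Its annotated entry reached at most 0.249 FPKM. Summed levels of fibroblast markers were 3.33 to 3.44 FPKM in HCC827 and 2.72 to 3.06 FPKM in HCC827/GR. Those of smooth muscle and fat cell markers, of which 4 of 6 were in the table, were 0.274 to 0.322 and 0.967 to 1.58 FPKM, of which CNN1 made up most in HCC827/GR, while DES was listed at 0 in HCC827. Those of immune markers were 0.318 to 0.378 and 0.115 to 0.244 FPKM.

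CAV1 was the only one of the 7 members that passed the test, and it was lower in HCC827/GR. The test was limma on log2(FPKM + 1) over 16189 entries whose mean over the libraries reached 0.5 FPKM, and a call means a Benjamini-Hochberg adjusted p under 0.05 over all of these. All 7 members passed this filter on low values. A call of lower in HCC827/GR was made for 5.71% of all entries tested and a call of higher for 5.26%, so 1 lower and 0 higher among 7 was near the background. At an unadjusted p under 0.05, limma gave CAV1 and CAV2, both lower, and no member that was higher. Of all 16189 entries tested, 4410 were under that threshold (2242 lower and 2168 higher), so 2 of 7 was near the background. The median difference of the members was -0.31 on the log2 scale, against 0.0014 over all entries tested. The libraries of the lines did not overlap for 4 members (CAV1, CAV2, EHD2 and PACSIN2), where 46.3% of all entries did not overlap.

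**Figure D1:**
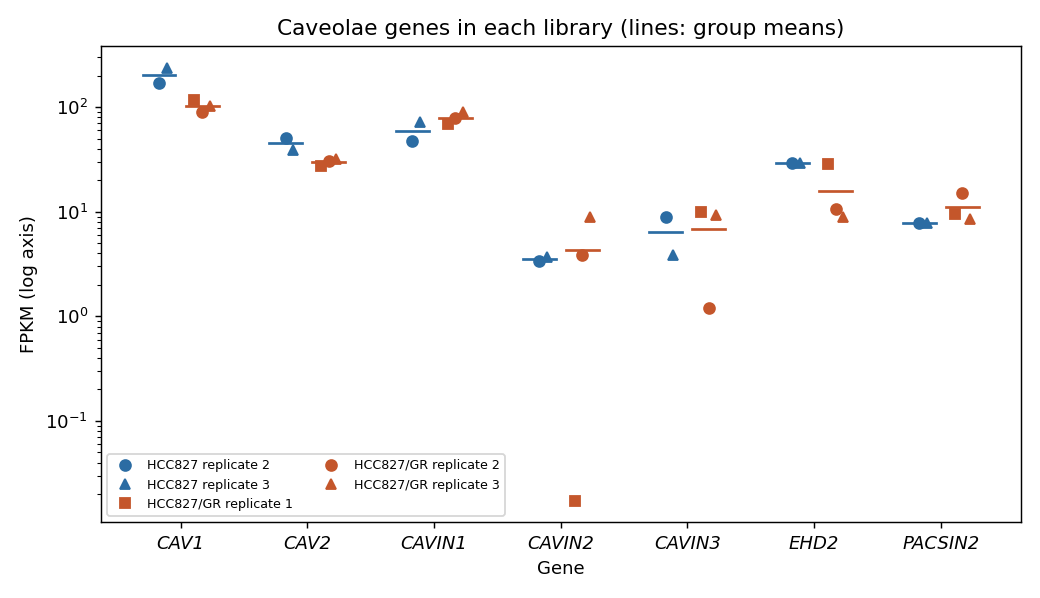
FPKM of the 7 caveolae genes (log axis) in each library, with HCC827 in blue, HCC827/GR in orange, 1 symbol per replicate number and lines at the group means. CAV1 lies between 171 and 239.8 FPKM in HCC827 and between 90.1 and 118 FPKM in HCC827/GR, and CAVIN2, CAVIN3 and EHD2 each have an HCC827/GR library far from the others.

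CAV1, the caveolar coat protein (chr7:116524785-116561184, plus strand, up to 3 exons in its annotated transcripts), was at 171 and 239.8 FPKM in HCC827 replicates 2 and 3 and at 118, 90.1 and 102 FPKM in HCC827/GR replicates 1, 2 and 3. Each resistant library was below each parental library. The mean was 206 ± 48.5 FPKM (SD, n = 2) in HCC827 and 103 ± 14.1 FPKM (SD, n = 3) in HCC827/GR, a ratio of 0.5035. On the log2(FPKM + 1) scale CAV1 fell by 0.97 with a standard error of 0.20 (limma, adjusted p = 0.0489). The call lies close to the threshold and was lost when any 1 of the 5 libraries was left out, with adjusted p between 0.0861 and 0.151. It was also lost with the library-size covariate of the study's own software, Ballgown, where the difference was -0.89 (adjusted p = 0.196). Over all 14 alternative settings the difference stayed negative, between -1.21 and -0.73, and the adjusted p ran from 0.0258 to 0.196. In such bulk samples, fewer cells that express a gene and less of its RNA per cell cannot be told apart. The epithelial markers fell in the same libraries, and their part in the CAV1 difference was not tested.

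The mean of CAV1 over the 5 libraries of both lines ranked 91 among the entries tested, above 99.4% of them. In HCC827/GR as in HCC827 it was the most abundant of the 7 members.

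CAV2, its partner in the caveolin oligomer (chr7:116287380-116508541, plus strand), was at 51.1 and 39.4 FPKM in HCC827 and at 27.7, 30.8 and 32.25 FPKM in HCC827/GR. All resistant libraries lay below both parental ones. The mean was 45.2 ± 8.27 FPKM (SD, n = 2) against 30.2 ± 2.30 FPKM (SD, n = 3), a ratio of 0.669. The difference of -0.56 (standard error 0.15) did not pass the test (limma, adjusted p = 0.0895). It passed where all 14 entries with the symbol CAV2 were summed, at -0.61 (adjusted p = 0.0368), and over all alternatives the adjusted p ran from 0.0368 to 0.253. The 13 other CAV2 entries are assembled loci with no annotated transcript and reached at most 1.92 FPKM. The muscle caveolin CAV3 was between 0 and 0.0962 FPKM in all libraries.

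The cavins did not pass the test in either direction. CAVIN1, the cavin that the coat needs (chr17:42402452-42423517, minus strand), was at 47.4 and 72.0 FPKM in HCC827 and at 69.4, 79.0 and 89.8 FPKM in HCC827/GR. HCC827 replicate 3 lay above HCC827/GR replicate 1, so the lines overlapped. The mean was 59.7 ± 17.4 FPKM (SD, n = 2) against 79.4 ± 10.2 FPKM (SD, n = 3). The difference was 0.43 with a standard error of 0.22 (limma, adjusted p = 0.298).

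CAVIN2, which shapes the membrane with cavin-1 (chr2:191834302-191847255, minus strand), was at 3.40 and 3.71 FPKM in HCC827 and at 0.0173, 3.89 and 8.97 FPKM in HCC827/GR. A single library, HCC827/GR replicate 1, was near 0 while the others of that line were above both parental libraries. The difference was -0.31 with a standard error of 1.00 (limma, adjusted p = 0.880), and it was 0.62 without that library. It was -1.88 with the library-size covariate (adjusted p = 0.0877, range over all alternatives 0.0877 to 0.928) and -1.17 with a pseudocount of 0.1. The spread among the HCC827/GR libraries, 3.29 on the log2(FPKM + 1) scale, was exceeded by 0.439% of the entries tested.

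CAVIN3, which binds cavin-1 and protein kinase C delta (chr11:6318946-6320647, minus strand), was at 8.93 and 3.88 FPKM in HCC827 and at 9.87, 1.19 and 9.39 FPKM in HCC827/GR. Here it was HCC827/GR replicate 2 that stood apart, at the lowest value of all. The difference was -0.15 with a standard error of 0.84 (limma, adjusted p = 0.932), and it was 0.61 without that library. The muscle cavin CAVIN4 stayed between 0.0636 and 0.442 FPKM.

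EHD2, the ATPase of the caveolar neck (chr19:47713343-47743134, plus strand), was at 29.4 and 29.1 FPKM in HCC827 and at 28.4, 10.6 and 8.84 FPKM in HCC827/GR. HCC827/GR replicate 1 lay just under the parental libraries, and the other two HCC827/GR libraries were far below. The mean was 29.2 ± 0.247 FPKM (SD, n = 2) against 15.9 ± 10.9 FPKM (SD, n = 3). The difference of -1.01 was the largest among the members, but its standard error was 0.51 and it did not pass the test (limma, adjusted p = 0.285). Without HCC827/GR replicate 1 it was -1.50 (adjusted p = 0.0356), and with the library-size covariate it was -0.26 (adjusted p = 0.666), the ends of the range over all alternatives. HCC827/GR replicate 1 was thus the highest of its line for CAV1, CAVIN3 and EHD2 and the lowest for CAV2, CAVIN1 and CAVIN2.

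PACSIN2, the F-BAR protein (chr22:42835412-43015145, minus strand), was at 7.87 and 7.88 FPKM in HCC827 and at 9.49, 15.1 and 8.51 FPKM in HCC827/GR. The resistant libraries were all above the parental ones, and replicate 2 was the highest. The difference of 0.40 (standard error 0.25) did not pass the test (limma, adjusted p = 0.378). This entry joins 8 transcripts of PACSIN2 with 5 of the neighbouring gene ARFGAP3 and 7 assembled ones, so its level cannot be assigned to PACSIN2 alone.

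**Figure D2:**
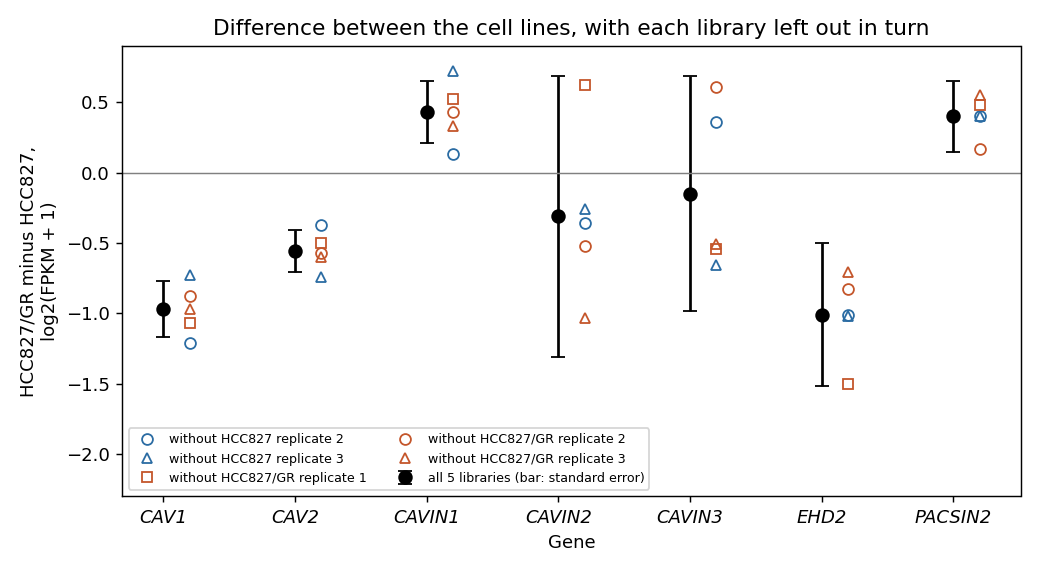
Difference HCC827/GR minus HCC827 in log2(FPKM + 1) for each gene, with black points and standard errors from all 5 libraries and open symbols for the fits that leave out 1 library each. CAV1 and CAV2 stay below 0 and CAVIN1 and PACSIN2 above 0 in all fits, whereas CAVIN2 and CAVIN3 cross 0.

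Added together, the 7 members reached 319 and 395.7 FPKM in HCC827 and 263, 230.6 and 259.9 FPKM in HCC827/GR. Without CAV1 the sums were 148 and 156 FPKM in HCC827 and 145, 140.5 and 158 FPKM in HCC827/GR. The sum was lower in every resistant library, whereas the sum without CAV1 overlapped between the lines. CAV1 made up 53.6% and 60.6% of the members' FPKM in HCC827 and 44.9%, 39.1% and 39.3% in HCC827/GR. CAVIN1 made up 14.9% and 18.2% in HCC827 and 26.4%, 34.2% and 34.6% in HCC827/GR.

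The order of mean levels was CAV1, CAVIN1, CAV2, EHD2, PACSIN2, CAVIN3 and CAVIN2 in both lines. In HCC827, the libraries of CAVIN1 and CAV2 overlapped, as did those of PACSIN2 and CAVIN3, and the other neighbours in the order were separate. In HCC827/GR, CAV1 and CAVIN1 were each separate from the next gene, and from CAV2 downward every neighbour overlapped.

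Ratios of FPKM within a library show whether members differed by the same factor. For 5 pairs the log2 ratio was compared with an exact permutation test (two-sided, 10 assignments), in which the smallest possible p is 0.1, so the design cannot reach 0.05. Between the caveolins, the CAV1 to CAV2 ratio was 3.35 and 6.09 in HCC827 and 4.26, 2.93 and 3.17 in HCC827/GR. The ratios of the lines overlapped, and the log2 difference was -0.41 (exact permutation p = 0.4, adjusted over the 5 pairs 0.667).

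The ratio of coat cavin to coat caveolin differed more. The CAVIN1 to CAV1 ratio was 0.277 and 0.300 in HCC827 and 0.587, 0.876 and 0.880 in HCC827/GR. All resistant libraries were above both parental ones, with mean log2 ratios of -1.79 ± 0.08 (SD, n = 2) in HCC827 and -0.38 ± 0.34 (SD, n = 3) in HCC827/GR. The log2 difference of 1.41 had the smallest exact permutation p that the design gives, 0.1 (adjusted 0.25), and stayed between 1.31 and 1.61 with each library left out.

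The PACSIN2 to CAV1 ratio was 0.0460 and 0.0329 in HCC827 and 0.0804, 0.168 and 0.0834 in HCC827/GR, again without overlap. Its log2 difference was 1.42 (exact permutation p = 0.1, adjusted 0.25), for the entry that also holds ARFGAP3 transcripts. CAV1 is the denominator of this ratio and of CAVIN1 to CAV1, so both carry the CAV1 difference and are not separate results. The EHD2 to CAV1 ratio differed by -0.10 (exact permutation p = 0.9, adjusted 0.9) and the CAVIN3 to CAVIN1 ratio by -0.73 (p = 0.8, adjusted 0.9), and both overlapped between the lines.

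**Figure D3:**
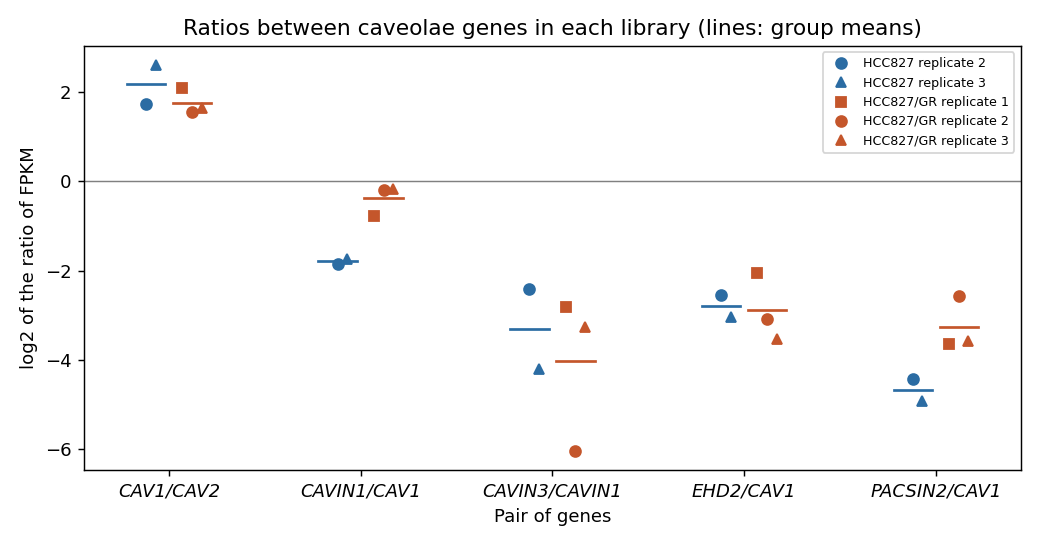
Log2 ratio of FPKM between pairs of caveolae genes in each library, with HCC827 in blue, HCC827/GR in orange and lines at the group means. For CAVIN1/CAV1 the HCC827 libraries lie at -1.85 and -1.73 and the HCC827/GR libraries between -0.77 and -0.18, and for PACSIN2/CAV1 the lines are also separate.

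Relatives of the neck proteins can stand beside EHD2 and PACSIN2 in other membrane compartments. EHD1 and EHD3 act in endosome recycling and EHD4 at early endosomes, while PACSIN3 is the muscle-rich and PACSIN1 the neuronal syndapin. EHD2 held 67.4% and 55.6% of the summed FPKM of the 4 EHD genes in HCC827 and 66.0%, 40.2% and 43.3% in HCC827/GR. It remained the most abundant EHD gene in all 5 libraries, although its share overlapped between the lines. EHD1 was at 4.71 and 14.7 FPKM in HCC827 and between 5.33 and 6.37 FPKM in HCC827/GR. The PACSIN2 entry, which also holds ARFGAP3 transcripts, made up 58.0% of the PACSIN family in both HCC827 libraries and 57.1%, 76.5% and 59.8% in HCC827/GR, with PACSIN3 between 4.46 and 6.92 FPKM. Of the 7 relatives of coat and rim (CAV3, CAVIN4, EHD1, EHD3, EHD4, PACSIN1 and PACSIN3), 4 passed the filter and 0 were called in either direction by limma, with differences between -0.49 and 0.09 and a median of -0.13. None of the 4 had an unadjusted p under 0.05.

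**Figure D4:**
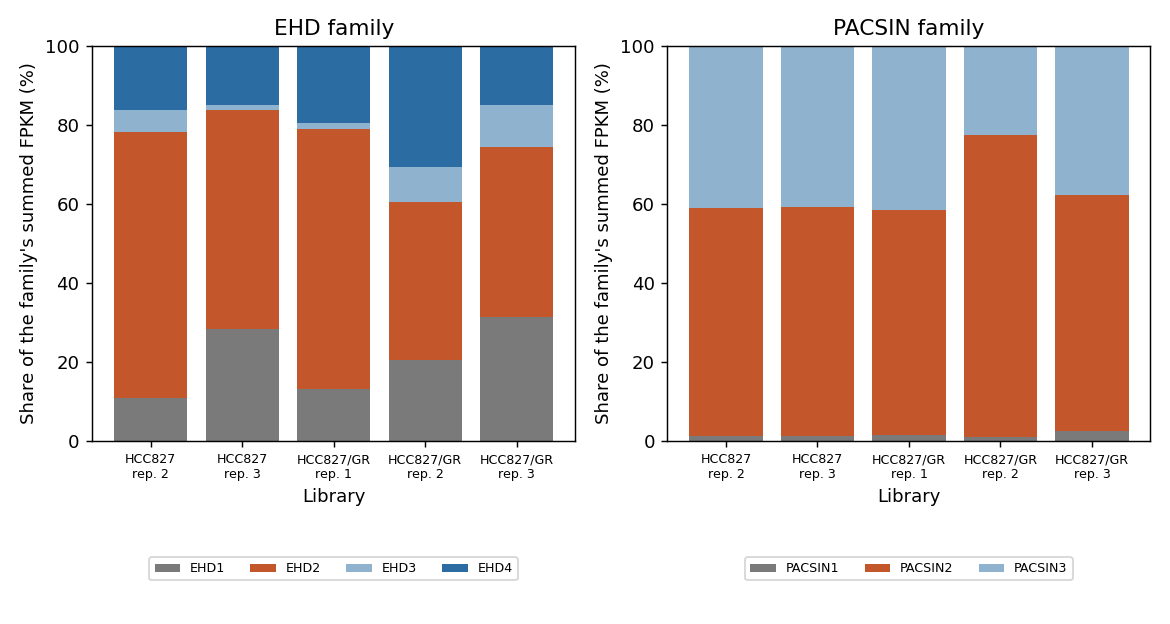
Share of each gene in the summed FPKM of the EHD family (left) and the PACSIN family (right), 1 bar per library. EHD2 holds between 40.2% and 67.4% and the PACSIN2 entry, which also holds ARFGAP3 transcripts, between 57.1% and 76.5%.

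Among 13 proteins that bind caveolin, sit in caveolae or act in their uptake, 12 were in the table and 10 passed the filter. Of these, 2 rose in HCC827/GR and 0 fell, with a median difference of 0.30, beside the background of 5.26% called higher. At an unadjusted p under 0.05, limma gave 1 lower gene, DNM2, and 4 higher ones, FYN, INSR, FLNA and TGFBR1. That threshold was also met by 2242 lower and 2168 higher entries of all 16189 tested. FYN, a SRC-family kinase that binds caveolin-1, was at 0.822 and 0.745 FPKM in HCC827 and at 4.09, 2.79 and 4.04 FPKM in HCC827/GR. It rose by 1.37 with a standard error of 0.17 (limma, adjusted p = 0.0147). INSR, the insulin receptor, which is found in caveolae of fat cells, was at 2.15 and 1.82 FPKM in HCC827 and at 4.43, 4.75 and 3.96 FPKM in HCC827/GR. It rose by 0.85 with a standard error of 0.11 (limma, adjusted p = 0.0181).

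The other 8 tested genes of that list did not pass. FLNA, the filamin that links caveolae to actin, was the most abundant, at 223 and 211 FPKM in HCC827 and at 298, 273 and 331 FPKM in HCC827/GR, a difference of 0.47 (limma, adjusted p = 0.0852). DNM2, the dynamin that cuts vesicles from the membrane, differed by -0.38 (adjusted p = 0.102), SRC, which phosphorylates caveolin-1, by -0.24 (adjusted p = 0.240), and ROR1, a receptor that binds CAV1 and CAVIN1, by -0.32 (adjusted p = 0.279). TGFBR1, a TGF-beta receptor, differed by 0.66 (adjusted p = 0.119) and ABL1, a kinase of stress fibre regulation, by 0.67 (adjusted p = 0.334). For SCARB1, a lipoprotein receptor, the difference was 0.13, and for AQP1, a water channel whose entry joins transcripts of 5 genes, it was 0.14. NOS3, the endothelial nitric oxide synthase that caveolin-1 binds, was under the filter. It was at 0.867 and 0.484 FPKM in HCC827 and at 0, 0.0121 and 0.00858 FPKM in HCC827/GR.

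Flotillins and stomatin mark membrane microdomains outside caveolae, and 0 of 3 were called by limma, with 1 at an unadjusted p under 0.05. Of all 16189 entries tested, 4410 were under that threshold. FLOT1 was at 18.0 and 19.1 FPKM in HCC827 and at 26.2, 24.0 and 21.9 FPKM in HCC827/GR, a difference of 0.36 (adjusted p = 0.124). FLOT2 differed by 0.28 (adjusted p = 0.255), and STOM overlapped widely, between 4.53 and 26.6 FPKM in HCC827/GR.

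The clathrin coat serves the other main route of endocytosis. Of its 14 genes on the list, all were tested, 1 rose, 1 fell and 12 did not pass, with a median difference of 0.01. These counts are near the background of 5.26% called higher and 5.71% called lower. Limma gave AP2B1, PICALM and FCHO2 as higher and CLTB, EPN2 and HIP1R as lower at an unadjusted p under 0.05. That threshold was met by 2168 higher and 2242 lower entries of all 16189 tested. PICALM, an adaptor that assembles clathrin, was at 24.1 and 26.2 FPKM in HCC827 and at 45.3, 45.7 and 55.1 FPKM in HCC827/GR. It rose by 0.92 with a standard error of 0.13 (limma, adjusted p = 0.0195). HIP1R, which links the clathrin coat to actin, was at 13.3 and 9.75 FPKM in HCC827 and at 5.54, 5.84 and 4.27 FPKM in HCC827/GR. It fell by 1.01 with a standard error of 0.19 (limma, adjusted p = 0.0385). The heavy chain CLTC was at 56.4 and 51.1 FPKM in HCC827 and between 58.7 and 59.5 FPKM in HCC827/GR (difference 0.14, adjusted p = 0.405). The calls among the relatives of coat and rim, the caveola-linked proteins, the flotillins with stomatin and the clathrin coat were 4 in all. They came to 0 with the library-size covariate (limma, 9 at an unadjusted p under 0.05) and to between 0 and 2 with any 1 HCC827/GR library left out. Over all entries tested, the calls went from 1775 to 145 with the covariate (3410 at an unadjusted p under 0.05). With an HCC827/GR library left out they went to between 432 and 884.

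CAV2 ends 16.2 kb before CAV1 starts in the annotation (GENCODE release 29 on GRCh38), and MET, the hepatocyte growth factor receptor, starts 111 kb beyond CAV1. Their neighbours were therefore set beside them. TES (testin, a focal adhesion protein) on the CAV2 side was at 20.8 and 20.1 FPKM in HCC827 and at 10.03, 16.3 and 14.6 FPKM in HCC827/GR, a difference of -0.57 (limma, adjusted p = 0.179). MET was at 101 and 124 FPKM in HCC827 and at 78.9, 74.3 and 67.2 FPKM in HCC827/GR, a difference of -0.60 (adjusted p = 0.0621). In TES, CAV2, CAV1 and MET the resistant libraries all lay below the parental ones, where 46.3% of all entries did not overlap in either direction, and CAV1 alone was called. Next along, CAPZA2, an actin capping subunit, was at 23.1 and 21.5 FPKM in HCC827 and at 24.7, 28.4 and 26.6 FPKM in HCC827/GR, a difference of 0.24 (adjusted p = 0.216). MDFIC, on the far side of TES, differed by -0.41 (adjusted p = 0.387). Of the 9 neighbours on the list, 5 passed the filter and 0 were called by limma, with 2 (MET and TES) at an unadjusted p under 0.05. Of all 16189 entries tested, 4410 were under that threshold.

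**Figure D5:**
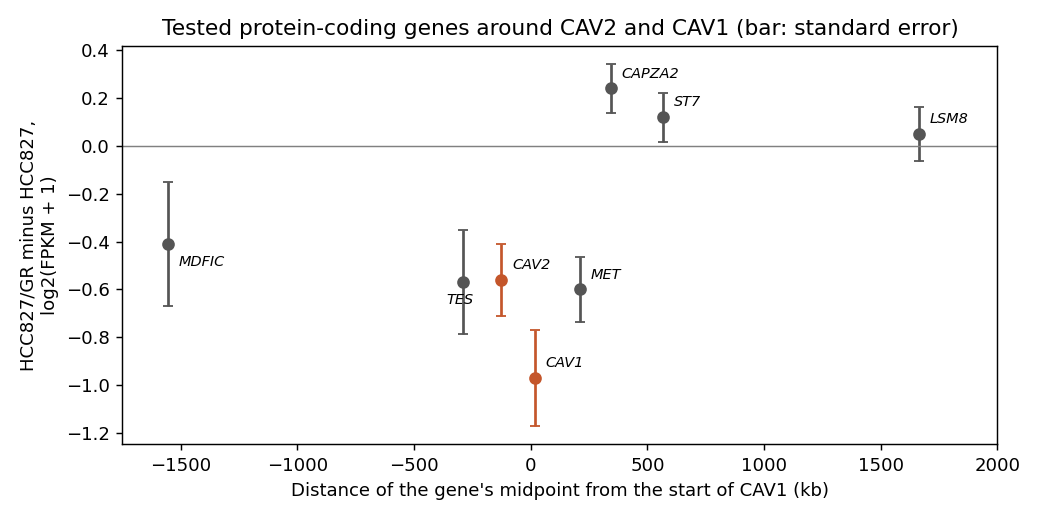
Difference HCC827/GR minus HCC827 in log2(FPKM + 1), with standard errors, for tested protein-coding genes against the distance of their midpoint from the start of CAV1 in kb. TES, CAV2, CAV1 and MET lie between -0.97 and -0.56, and CAPZA2, ST7 and LSM8 between 0.05 and 0.24. MDFIC, the farthest gene on the CAV2 side, lies at -0.41.

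The entries whose profile over the 5 libraries was most like that of CAV1 were CYP1A1, an enzyme of xenobiotic oxidation, MSRB1, a methionine sulfoxide reductase, and PRSS3, a trypsin-like protease. Likeness was the root mean square distance of the centred log2(FPKM + 1) profiles, and it was 0.0466, 0.0679 and 0.0890 among 16188 candidates. CYP1A1 was at 2.88 and 4.02 FPKM in HCC827 and at 1.53, 1.06 and 1.21 FPKM in HCC827/GR. None of the other caveolae genes was close. CAV2 ranked 2090 at a distance of 0.381, EHD2 ranked 4572, CAVIN1 ranked 12413, PACSIN2 ranked 13328, CAVIN3 ranked 14930 and CAVIN2 ranked 15730. For CAVIN1, the closest were ECD at 0.0323, CD3EAP at 0.0383 and FJX1 at 0.0387, and its closest caveolae gene, PACSIN2, ranked 6663.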

How the data were processed

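RNA from HCC827 (2 libraries) and HCC827/GR (3 libraries) was sequenced. The authors trimmed reads with Cutadapt, mapped them with Bowtie2 and TopHat2, assembled transcripts with StringTie and deposited FPKM values from StringTie and Ballgown. The submitters' processing notes name hg18 and the tools, with no versions, and the paper's text gives no build. The paper describes a paired-end library depleted of ribosomal RNA, whereas the labels describe a small-RNA, single-end library. In total 1 deposited FPKM column matched no sample and was not used.

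No value was rescaled. FPKM carries no counts, so depth and counting error are unknown and no count model was used. Positions came from GENCODE release 29 (GRCh38) through the Ensembl transcript identifiers of the table, which placed 31399 entries. HCC827/GR was compared with HCC827 with lmFit and eBayes (trend, two-sided) of limma 3.58.1, run in R 4.3.3, on log2(FPKM + 1). Entries entered the fit where their mean reached 0.5 FPKM, with Benjamini-Hochberg adjustment over all of them. A difference on this scale understates the change of low genes. This step was tested on simulated data. Ratios used FPKM without a pseudocount. Python 3.11.15, numpy 2.4.6, pandas 2.3.3 and matplotlib 3.10.9 were used for the rest.

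The members and lists were chosen with earlier results of these data known. Genes named are the 7 members, genes of the lists that were called or were needed for a count, the 3 entries most like CAV1 and like CAVIN1, and the nearest 2 tested protein-coding genes on each side of a member. One gene that this rule names is not reported here. The alternatives tried were quantile normalization, median-ratio scaling, a filter at 1 FPKM, no filter, a pseudocount of 0.1, a fit without the mean-variance trend, a fit with a library-size covariate as in Ballgown, a fit with a replicate block, the sum of a symbol's entries, and leaving out each library.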

Additional observations from a re-analysis of the deposited data

How the results depend on the processing

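Of 14 alternatives, CAV1 kept its call in 4 (quantile normalization, median-ratio scaling, a filter at 1 FPKM and summed entries) and its direction in all. It lost the call with the library-size covariate (-0.89, adjusted p = 0.196), without the trend (-0.97), with no filter (-0.97), with a pseudocount of 0.1 (-0.98) and with each library left out (-1.21 to -0.73). The number of members called, 1 in the comparison as reported, was 2 with summed entries, 0 with the covariate, without the trend, with no filter and with a pseudocount of 0.1 (limma, 2 to 3 at an unadjusted p under 0.05), and 0 to 1 with a library left out (1 to 3 unadjusted). CAV2 gained a call with summed entries (-0.61) and had -0.74 to -0.37 with a library left out. EHD2 gained one without HCC827/GR replicate 1 (range with a library left out -1.50 to -0.71). CAVIN1 and PACSIN2 kept their sign and passed under none, at 0.13 to 0.72 and 0.17 to 0.55 with a library left out. CAVIN2 turned to 0.62 without HCC827/GR replicate 1 (range -1.03 to 0.62) and was -1.88 with the covariate and -1.17 with a pseudocount of 0.1, and CAVIN3 to 0.61 without HCC827/GR replicate 2 and 0.36 without HCC827 replicate 2 (range -0.66 to 0.61). Over all entries tested, 1775 were called, and 432 to 884 with a library left out (181 to 450 higher and 248 to 434 lower). With the library-size covariate the number was 145 (68 higher and 77 lower), with 3410 at an unadjusted p under 0.05. The 4 calls among the relatives, caveola-linked, flotillin and clathrin lists came to 0 with the covariate (9 unadjusted) and 0 to 2 with a library left out. Log2 ratios changed sign with a library left out for CAV1/CAV2 (-0.84 to 0.02), CAVIN3/CAVIN1 (-1.63 to 0.28) and EHD2/CAV1 (-0.52 to 0.22), but not for CAVIN1/CAV1 or PACSIN2/CAV1. Fewer samples leave fewer degrees of freedom, and otherwise the cause was not tested.

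Replicate numbers 2 and 3 occur in both lines, but deviations from the group means of same-numbered libraries correlated at only 0.0328 and 0.0147, so the numbers were not taken to pair the samples. A block on the replicate number leaves few degrees of freedom, and HCC827/GR replicate 1 has no parental partner in it. The members' differences were therefore those of the fit without that library. With this block, CAV1 differed by -1.07 (limma, adjusted p = 0.143) and CAVIN2 by 0.62. Limma then called 0 of all entries (0 higher and 0 lower, with 3545 at an unadjusted p under 0.05), 0 members (2 unadjusted) and 0 list genes (7 unadjusted).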

Other observations

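Around the caveolae genes on other chromosomes, several of the nearest tested protein-coding genes can be set beside them. BIK, a BCL2-family gene near PACSIN2, differed by -1.22 (limma, adjusted p = 0.0775) and NABP1, near CAVIN2, by 0.89 (adjusted p = 0.0782), and neither passed the test. STAT3, the neighbour of CAVIN1, overlapped between the lines at 23.1 and 18.3 FPKM in HCC827 and 25.3, 19.6 and 17.1 FPKM in HCC827/GR. NOP53, which starts 2.39 kb beyond EHD2, was between 7.01 and 8.11 FPKM in all 5 libraries, without the low values that EHD2 had in HCC827/GR replicates 2 and 3.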
